A study of Mus musculus with 12 samples.

Results

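A set of 34 neuronal genes and genes of the REST repressor system was followed through *Srrm2* knockdown in mouse embryonic stem cells (ESCs). The members were given as a list of gene symbols and were taken from the polyA+ RNA-seq count table by matching its Ensembl identifiers to symbols of GENCODE M21 (build GRCm38), whose gene coordinates are given here. All 34 were found among the 42450 listed genes. They comprised *Rest*, *Rcor1* and *Rcor2*, 8 genes of synaptic vesicles and transmitter release, 5 granins and secreted peptides, 9 genes of the neuronal cytoskeleton and of transport, 6 genes of receptors, transmitter synthesis and the cell surface, and 3 CELF RNA-binding proteins.

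The study asked how loss of the splicing factor SRRM2 alters gene expression in ESCs. All 12 libraries came from wild-type cells of 1 male line, E14tg2a.4. The cells were kept on gelatin with LIF and then in serum-free ESGRO medium with LIF for 24 h or 72 h before collection. Every culture received 50 nM siRNA, directed against *Srrm2* (Srrm2-KD) or against Gl2, the firefly luciferase gene, as control (Gl2-KD), and the 72 h cultures were transfected again with the same siRNA. Each of the 4 groups has 3 libraries, from experiments 1, 2 and 3, and values are given in that order. A longer time after siRNA, a longer time in serum-free medium and the repeated transfection cannot be told apart.

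REST is a zinc finger protein that keeps neuronal genes silent outside neurons by binding a long DNA element, RE1, near their start sites. It recruits corepressors, among them the CoREST proteins encoded by *Rcor1* and *Rcor2*, which bring in histone deacetylases and the lysine demethylase LSD1. ESCs express REST strongly, and its loss during neural differentiation accompanies the onset of genes for vesicle release, neuropeptide storage and axonal structure. In neurons, the SRRM4 protein, a relative of SRRM2, switches the splicing of *Rest* to a form that encodes a truncated protein.

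Estimated counts per library summed to between 73933196 and 153343831. Values are given as CPM, counts scaled to library size with TMM factors, on which scale 1 count was worth 0.00616 to 0.0136 CPM. *Srrm2* itself was at 442 to 962 CPM in Gl2-KD and at 154 to 517 CPM in Srrm2-KD, and was lower in Srrm2-KD in every experiment and at both times. Its log2 fold change was -1.22 at 24 h and -1.16 at 72 h (SE 0.14 for both), with edgeR adjusted p of 0.0664 and 0.0991, and -1.19 in the mean of both (SE 0.10, edgeR adjusted p = 0.00254). The cells carried the markers of the labelled cell type. The 10 pluripotency genes summed to 4739 to 7300 CPM in a library, against 106 to 193 CPM for 14 genes of neural progenitor and neuron identity. Among the latter, the proneural genes *Neurog1* and *Neurog2* and the immature neuron marker *Dcx* had means of 0.0292 to 0.0635 CPM, whereas *Ncam1*, *Nes*, *Neurod1*, *Pax6* and *Map2* had means of 12.8 to 44.9 CPM. In such bulk samples fewer cells that express a gene and less RNA of it per cell cannot be told apart. Experiment 1 stood apart from experiments 2 and 3 on the leading principal component (42% of the variance), so each comparison was made within experiments.

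The DNA element that REST binds was looked for in the sequences at hand, since it is the feature that ties target genes to REST. The consensus of this element (RE1, also called NRSE) was written down from general knowledge, since none of the files at hand holds it, and is given here by name. It is 21 bases long with 19 fixed positions, and both strands were searched with up to 4 mismatches. Promoter windows of RefSeq (GRCm38.p6, 250 bases before to 50 after the start) were held for 21 members, and 2 of these (9.52%) had a match, against 74 of 27025 genes (0.274%). In the annotated transcripts of GENCODE M21 (GRCm38), a search added after seeing the data, 9 of 34 members (26.5%) had a match, against 789 of 21877 protein-coding genes (3.61%). In the first 500 bases of the transcripts, where the windows compared are of the same length, the shares were 8 of 34 (23.5%) and 333 of 21440 (1.55%). In all 11 members had a match, and introns and more distant flanks were not searched. A match is a stretch of letters and no measure of binding. The members include genes chosen as REST targets, so their higher share of matches is not independent of that choice. The sites of 9 members are shown 5′ to 3′ on the strand that reads as the element, with the bases that equal the consensus in capitals.
*Bdnf*, 5′ UTR, chr2:109676045-109676065, plus strand: TTCAGCACCttGGACAGaGCC
*Grin1*, 5′ UTR, chr2:25319014-25319034, minus strand: TTCAGCACCtcGGACAGCaCC
*Vgf*, 5′ UTR, chr5:137030274-137030294, minus strand: TTCAGCACgctGGACAGCGCC
*Sez6*, exon of a non-coding transcript, chr11:77930902-77930922, minus strand: aTCAGCACCacGGcCAGCGCC
*Syp*, coding exon, chrX:7638737-7638757, plus strand: TcCAGCACCgtGGACAGaGCC
*Syn1*, promoter, chrX:20921130-20921150, minus strand: TTCAGCACCgcGGtCAGaGCC
*Dner*, promoter, chr1:84696351-84696371, minus strand: TTCAGCACCaaGGACAagGgC
*Rundc3a*, 5′ UTR, chr11:102393452-102393472, plus strand: cTCAGCACCtcGGAgAGCtCC
*Stmn3*, edge of the coding sequence, chr2:181314201-181314221, minus strand: gcCAGCACCatGGcCAGCaCC
The sites of *Bdnf*, *Grin1* and *Vgf* differed from the consensus at 1 fixed position, those of *Sez6*, *Syp*, *Syn1* and *Syt4* at 2, those of *Dner* and *Rundc3a* at 3 and those of *Stmn3* and *Celf4* at 4. The *Syn1* and *Dner* sites lay 222 and 140 bases before the start, and the *Rundc3a* site 59 bases after one. Among the 32 members that were not near 0 counts, *Rundc3a* and *Dner* also had the lowest ratios of Srrm2-KD to Gl2-KD at 72 h. This was noted after the values were seen. *Bdnf*, *Grin1* and *Vgf*, with the closest sites, had no unadjusted edgeR p below 0.05 at 72 h. In the mean of both times *Grin1* was called, lower, when each experiment and time point formed a block of its own (edgeR adjusted p = 0.0437). Whether the sites bear on the siRNA response was not tested.

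The members spanned a wide range of levels in these cells. Levels per kb used the mean length of all annotated transcripts of a gene, so the order of genes depends on the annotation. Without division by length, *Rest* had the highest mean CPM of the members. Per kb, *Rcor2* had the highest mean, 140.4 CPM per kb, above 95.2% of the 19410 genes tested. *Stmn2*, a microtubule-destabilising phosphoprotein of growing axons, followed at 129 CPM per kb, then *Rest* at 57.6, the neuronal tubulin *Tubb3* at 44.98, the intermediate filament *Ina* at 30.4 and the neurofilament *Nefl* at 18.9. Cytoskeletal genes thus came first among the 31 members other than *Rest*, *Rcor1* and *Rcor2*. In CPM without the correction for length, 13 of these 31 had a mean of at least 10, 12 a mean from 1 to 10, and 6 a mean below 1. Per kb, 15 of the 31 lay above the median of all genes tested. The granin *Chga* reached 16.4 CPM per kb, while the related *Chgb* stood at 0.174, the nerve growth factor-induced peptide *Vgf* at 0.485 and the neurotrophin *Bdnf* at 0.296. At the low end were *Cplx2*, *Gdap1*, *Scg3*, *Nptx1* and *Celf3*, from 0.0988 down to 0.0155 CPM per kb. *Celf3* had 0 counts in 9 libraries and at most 17.2 in any, and *Scg3*, which sorts granins into secretory granules, had 0 counts in 5 libraries and at most 27.4. Every member passed the filter on low counts, but for these 2 no ratio is given because groups were at or near 0.

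**Figure D1:**
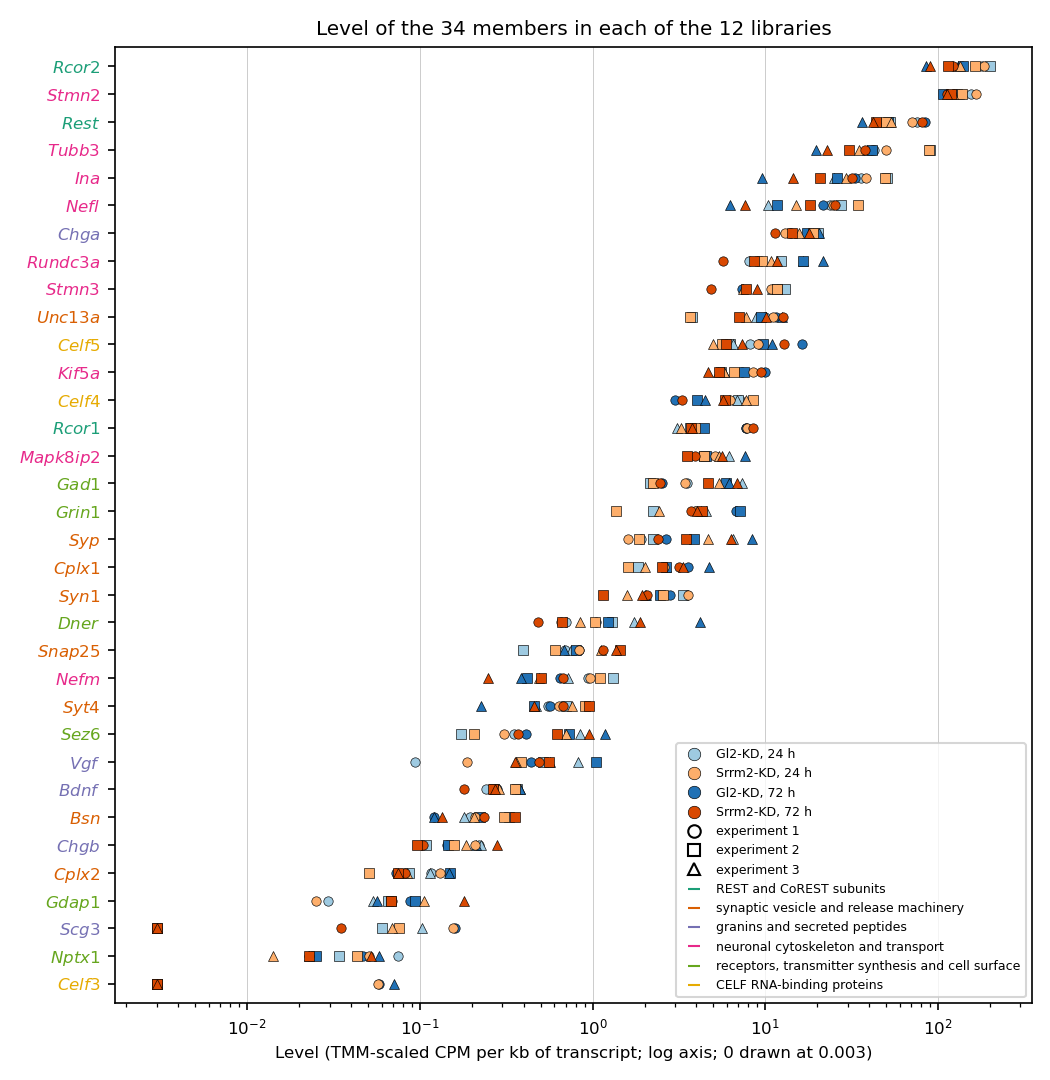
Level of each member in each library, in TMM-scaled CPM per kb of mean transcript length on a log axis, ordered by mean level. Colours give the siRNA and time, symbols the experiment and label colours the role of the gene. *Rcor2*, *Stmn2* and *Rest* lie at the top, and libraries without a count of *Celf3* or *Scg3* are drawn at 0.003.

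*Rest* (chr5:77265491-77286432), the repressor itself, did not differ in its level per gene between siRNAs beyond its spread. The splicing of *Rest* was not examined. At 24 h it was at 525, 367 and 342 CPM in Gl2-KD and at 493, 350.3 and 372 CPM in Srrm2-KD, and at 72 h at 588, 359 and 254 CPM and 565, 303 and 295 CPM. Within every group, experiment 1 was the highest, and the siRNA groups overlapped at both times. The log2 fold change was -0.00 at 24 h (95% interval -0.30 to 0.30) and -0.04 at 72 h (-0.34 to 0.26), with edgeR adjusted p of 1.0 and 0.935. In the mean of both times it was -0.02 (SE 0.10, edgeR adjusted p = 0.948). With time it was -0.09 in Gl2-KD and -0.12 in Srrm2-KD (SE 0.14 for both, edgeR adjusted p = 0.809 and 0.709).

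*Rcor1* (chr12:111039351-111115901), which encodes the CoREST scaffold protein, likewise did not differ between siRNAs beyond its spread. It was at 32.5, 15.4 and 12.9 CPM in Gl2-KD and 32.8, 16.6 and 13.7 CPM in Srrm2-KD at 24 h, and at 32.4, 18.6 and 15.5 CPM and 35.5, 15.6 and 15.9 CPM at 72 h. Here too experiment 1 stood above all other libraries, whatever the siRNA. The log2 fold change was 0.07 at 24 h (95% interval -0.17 to 0.30), -0.03 at 72 h (-0.26 to 0.21) and 0.02 in the mean of both, with edgeR adjusted p of 1.0, 0.943 and 0.936. With time it was 0.18 in Gl2-KD and 0.08 in Srrm2-KD (SE 0.11 for both, edgeR adjusted p = 0.458 and 0.742).

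*Rcor2* (chr19:7267325-7275225), the CoREST paralogue that is abundant in ESCs, changed with time, and its siRNA groups did not differ beyond their spread. It was at 265, 298 and 194 CPM at 24 h and 205, 206 and 126 CPM at 72 h in Gl2-KD, and at 275, 244 and 198 CPM and 180.2, 169 and 132 CPM in Srrm2-KD. It was lower at 72 h in 6 of 6 pairs of libraries, and in Srrm2-KD all 3 libraries of 72 h lay below all 3 of 24 h. The fall passed the test in Gl2-KD (log2 fold change -0.51, SE 0.10, edgeR adjusted p = 0.0363) and in Srrm2-KD (log2 fold change -0.57, SE 0.10, edgeR adjusted p = 0.0467). Between siRNAs the log2 fold change was -0.07 at 24 h (95% interval -0.29 to 0.15), -0.13 at 72 h (-0.35 to 0.08) and -0.10 in the mean, with edgeR adjusted p of 1.0, 0.605 and 0.57.

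**Figure D2:**
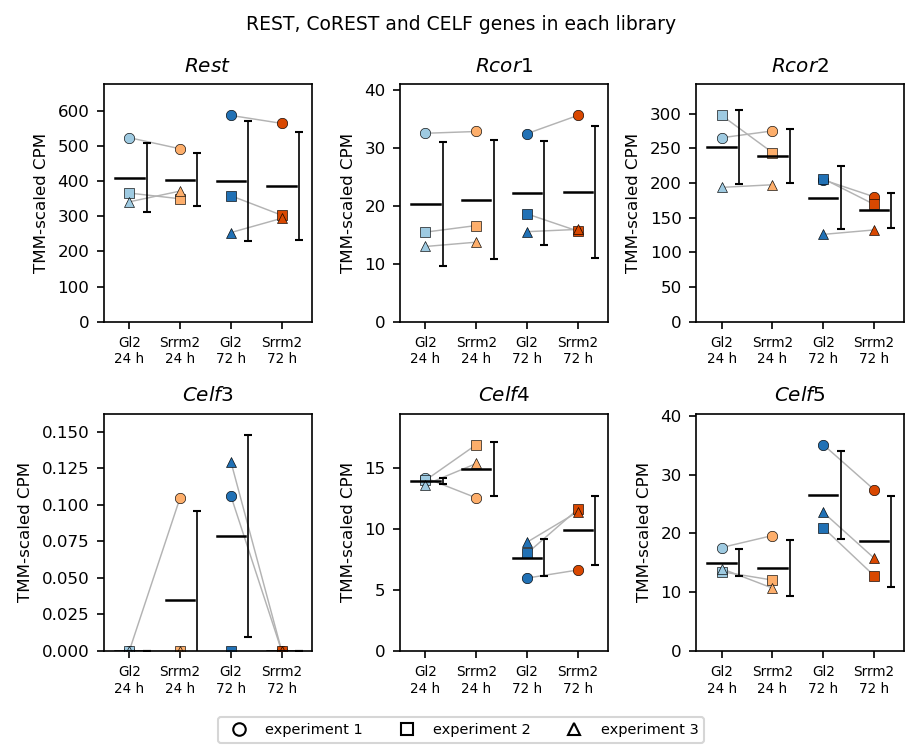
TMM-scaled CPM of the REST, CoREST and CELF genes in each of the 12 libraries. Symbols give the experiment, grey lines join libraries of 1 experiment and time, horizontal bars are group means and vertical bars are SD (n = 3). *Rcor2* and *Celf4* are lower and *Celf5* is higher at 72 h than at 24 h with either siRNA, and *Rest* and *Rcor1* are highest in experiment 1.

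At 24 h after *Srrm2* siRNA, no member was called against the control. By edgeR's quasi-likelihood test, 0 of 34 members were called, as were 0% of the 19410 genes tested, and at an unadjusted p below 0.05 it was 0 members against 2.62% of all genes. DESeq2 and limma-voom called 0 members and 0.124% and 0.0103% of all genes. The edgeR fit did not call *Srrm2* itself at 24 h (edgeR adjusted p = 0.0664), so the lack of a call does not show that a gene was unchanged. The paper's own test, with the day of RNA processing as a covariate, called *Srrm2* at 24 h. The members had a median log2 fold change of -0.04, with 15 above and 19 below 0, against 0.01 for all genes tested, of which 51.3% were above 0. At 24 h 0 members had groups that did not overlap, against 3.44% of all genes. The smallest unadjusted p belonged to *Syp*, an integral membrane protein of synaptic vesicles, at 2.29, 2.70 and 7.84 CPM in Gl2-KD and 1.93, 2.24 and 5.60 CPM in Srrm2-KD. It was lower in 3 of 3 experiments but the groups overlapped (log2 fold change -0.34, SE 0.17, edgeR adjusted p = 1.0). *Snap25*, the plasma membrane SNARE of transmitter release, was at 1.85, 1.05 and 2.00 CPM and 2.24, 1.63 and 2.99 CPM and was higher in 3 of 3 experiments (log2 fold change 0.49, SE 0.27, edgeR adjusted p = 1.0). *Syt4*, a synaptotagmin of secretory vesicles, was also higher in each experiment (log2 fold change 0.44, SE 0.27, edgeR adjusted p = 1.0), and *Rundc3a*, a RUN domain protein, was lower in 2 of 3 (log2 fold change -0.26, SE 0.16, edgeR adjusted p = 1.0). *Celf3* also ranked among the 5 smallest p, with counts in 1 of 6 libraries of that time.

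At 72 h the point estimates of the members leaned downwards, but none passed the test across all genes. *Srrm2* itself did not pass it either (edgeR adjusted p = 0.0991), whereas the paper's own test called *Srrm2* and other genes at 72 h. 27 of 34 were below 0 and 7 above, with a median of -0.24, against -0.02 for all genes, of which 47.9% were above 0. By edgeR 0 members were called (0% of all genes), and at an unadjusted p below 0.05 it was 3 higher (5.01% of all genes) and 7 lower members (7.86%), 10 of 34, against 12.9% of all genes. *Celf3* and *Scg3*, at or near 0 counts, are among the 27 below 0, and *Celf3* is among the 7 lower members. *Celf3* had no count in Srrm2-KD at 72 h and at most 0.129 CPM in Gl2-KD. 16 members were lower in 3 of 3 experiments, against 23.1% of all genes, and 5 were higher in 3 of 3, against 18.8%. DESeq2 called 2 members (2.76% of all genes), *Rundc3a* and *Celf5*, both lower, and limma-voom called 0 (0.0206%).

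*Rundc3a* (chr11:102393403-102402555) had the smallest p at 72 h. It was at 12.1, 20.97 and 27.6 CPM in Gl2-KD and 7.22, 10.99 and 14.98 CPM in Srrm2-KD. Each experiment gave a lower value after *Srrm2* siRNA, while the control of experiment 1 lay below the knockdown of experiment 3, so the groups overlapped. The knockdown level was 0.552 of the control by the fit (log2 fold change -0.86, SE 0.16, edgeR adjusted p = 0.124). Over 24 other edgeR settings the edgeR adjusted p ranged from 0.016 to 1.0 and was below 0.05 in 4, and DESeq2 gave an adjusted p of 0.00027. In the mean of both times the log2 fold change was -0.56 (SE 0.12, edgeR adjusted p = 0.0887), lower in 5 of 6 pairs.

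*Dner* (chr1:84369839-84696221), a transmembrane Notch ligand of neurons, was at 1.83, 2.15 and 7.28 CPM in Gl2-KD and 0.841, 1.16 and 3.30 CPM in Srrm2-KD at 72 h. The control of experiment 3 was far above the others, and the knockdown of experiment 3 was above the controls of experiments 1 and 2, so the groups overlapped although each experiment gave a lower value. The ratio by the fit was 0.477 (log2 fold change -1.07, SE 0.35, edgeR adjusted p = 0.263). Over 24 other edgeR settings the edgeR adjusted p was below 0.05 in 2, with 0.0313 the lowest. At 24 h it had been at 1.22, 2.27 and 3.04 CPM and 1.14, 1.81 and 1.47 CPM, again lower in 3 of 3 experiments, and in the mean of both times the log2 fold change was -0.74 (SE 0.25, edgeR adjusted p = 0.232).

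*Celf5* (chr10:81459227-81482709), a brain-enriched regulator of splicing and translation, was at 35.1, 20.98 and 23.6 CPM in Gl2-KD and 27.5, 12.8 and 15.8 CPM in Srrm2-KD at 72 h, lower in 3 of 3 experiments and with overlap between the groups (log2 fold change -0.54, SE 0.14, edgeR adjusted p = 0.176). In the mean of both times it was also lower (log2 fold change -0.34, SE 0.10, edgeR adjusted p = 0.183). Its paralogue *Celf4* was at 5.95, 7.98 and 8.89 CPM and 6.61, 11.6 and 11.4 CPM, higher in 3 of 3 experiments. The log2 fold change of *Celf4* was 0.36, without an unadjusted edgeR p below 0.05. The point estimates of *Celf5* and *Celf4* thus had opposite signs, and neither gene passed the adjusted test.

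3 genes of the release machinery had higher values in Srrm2-KD at 72 h. *Snap25* (chr2:136713453-136782428) was at 2.23, 2.15 and 1.82 CPM in Gl2-KD and 3.08, 3.87 and 3.63 CPM in Srrm2-KD, and was the 1 member whose siRNA groups did not overlap at 72 h, as 6.66% of all genes did not. The ratio was 1.71 by the fit (log2 fold change 0.77, SE 0.27, edgeR adjusted p = 0.284), and in the mean of both times the gene was higher in 6 of 6 pairs (log2 fold change 0.63, SE 0.19, edgeR adjusted p = 0.194). *Bsn*, the presynaptic scaffold bassoon, was at 1.41, 2.63 and 1.41 CPM and 2.77, 4.14 and 1.57 CPM, higher in 3 of 3 experiments with overlap (log2 fold change 0.62, SE 0.22, edgeR adjusted p = 0.283). *Syt4* was at 2.19, 1.79 and 0.883 CPM and 2.63, 3.71 and 1.77 CPM, and over both times it was higher in 6 of 6 pairs (log2 fold change 0.59, SE 0.19, edgeR adjusted p = 0.222). All 3 were lowly expressed, with 115 to 538 estimated counts in a library for *Bsn*. The vesicle protein *Syn1*, the complexins *Cplx1* and *Cplx2*, the priming factor *Unc13a* and *Syp* had negative point estimates, from -0.69 to -0.22, none with an unadjusted p below 0.05.

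**Figure D3:**
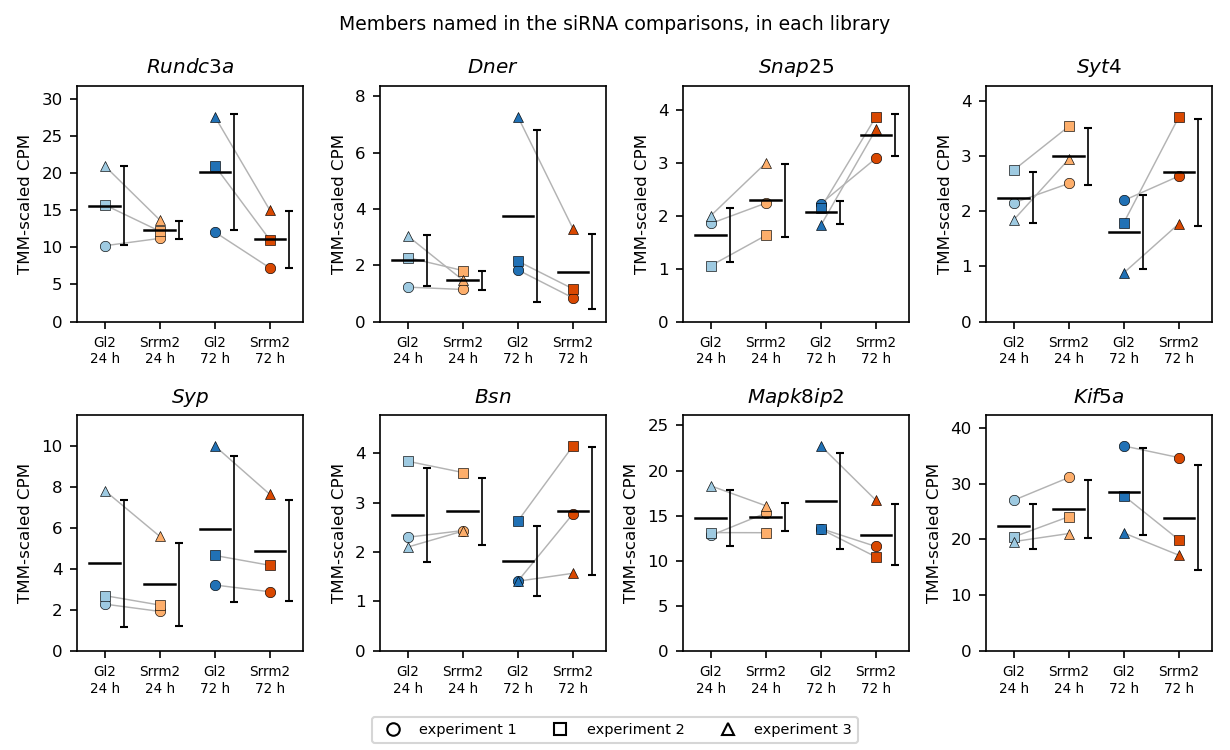
TMM-scaled CPM of 8 members in each library, drawn as for the REST and CELF genes: symbols for experiments, grey lines within 1 experiment and time, bars for mean and SD (n = 3). At 72 h *Rundc3a* and *Dner* are lower and *Snap25*, *Syt4* and *Bsn* higher in Srrm2-KD in each experiment, and only the *Snap25* groups do not overlap.

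Among the secreted proteins, all 5 granins and peptides had negative point estimates at 72 h (median -0.39, *Scg3* included), and 0 of them an unadjusted p below 0.05. *Chga*, the chromogranin that drives the formation of dense-core granules, was at 15.5, 19.1 and 22.4 CPM in Gl2-KD and 12.5, 15.7 and 19.6 CPM in Srrm2-KD. It was lower in 6 of 6 pairs over both times, with overlap at both (log2 fold change -0.21 in the mean, unadjusted p = 0.0381, edgeR adjusted p = 0.333). *Bdnf* and *Vgf*, whose sites were closest to the REST consensus together with *Grin1*, were scarce. *Bdnf* was at 1.11, 1.06 and 1.49 CPM and 0.710, 1.04 and 1.08 CPM and *Vgf* at 0.913, 2.15 and 1.16 CPM and 1.01, 1.16 and 0.737 CPM, and both overlapped.

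Of the 9 cytoskeletal and transport genes, 7 were negative at 72 h (median -0.10), and 4 of these had an unadjusted p below 0.05 (7.86% of all genes were lower at that threshold). Besides *Rundc3a* they were *Mapk8ip2*, a scaffold of the JNK pathway on kinesin cargo, *Kif5a*, a neuronal kinesin heavy chain, and *Stmn3*, a stathmin. *Mapk8ip2* was at 13.6, 13.5 and 22.7 CPM in Gl2-KD and 11.6, 10.4 and 16.7 CPM in Srrm2-KD, lower in 3 of 3 experiments with overlap (log2 fold change -0.35, SE 0.14, edgeR adjusted p = 0.313). *Stmn3* was at 8.31, 13.3 and 13.4 CPM and 5.52, 8.83 and 10.2 CPM, and it was lower in 6 of 6 pairs over both times (log2 fold change -0.51, SE 0.23, edgeR adjusted p = 0.386 at 72 h). *Nefl* had the highest value of this group, 0.37, and was higher in 6 of 6 pairs over both times, with an unadjusted p of 0.0459 in the mean. The abundant *Stmn2* was at 206, 172 and 199 CPM and 182, 192 and 183 CPM, a difference of -0.05 on the log2 scale (95% interval -0.28 to 0.19).

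Of the 6 genes of receptors, transmitter synthesis and the cell surface, 5 were negative at 72 h (median -0.32), and *Dner* alone had an unadjusted p below 0.05. *Grin1*, the obligate subunit of NMDA receptors, was at 11.6, 6.60 and 13.3 CPM in Gl2-KD and 11.5, 4.03 and 7.10 CPM in Srrm2-KD at 24 h, and at 20.001, 21.1 and 12.5 CPM and 10.8, 12.7 and 11.8 CPM at 72 h. It was lower in 6 of 6 pairs, and the groups overlapped at both times (log2 fold change -0.56 in the mean, edgeR adjusted p = 0.322). *Gad1*, the GABA-synthesising decarboxylase, was at 4.84, 11.5 and 11.9 CPM and 4.73, 8.97 and 13.2 CPM at 72 h, higher in 1 of 3 experiments. The member with a positive point estimate was *Gdap1*, with at most 36.0 counts in a library.

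**Figure D4:**
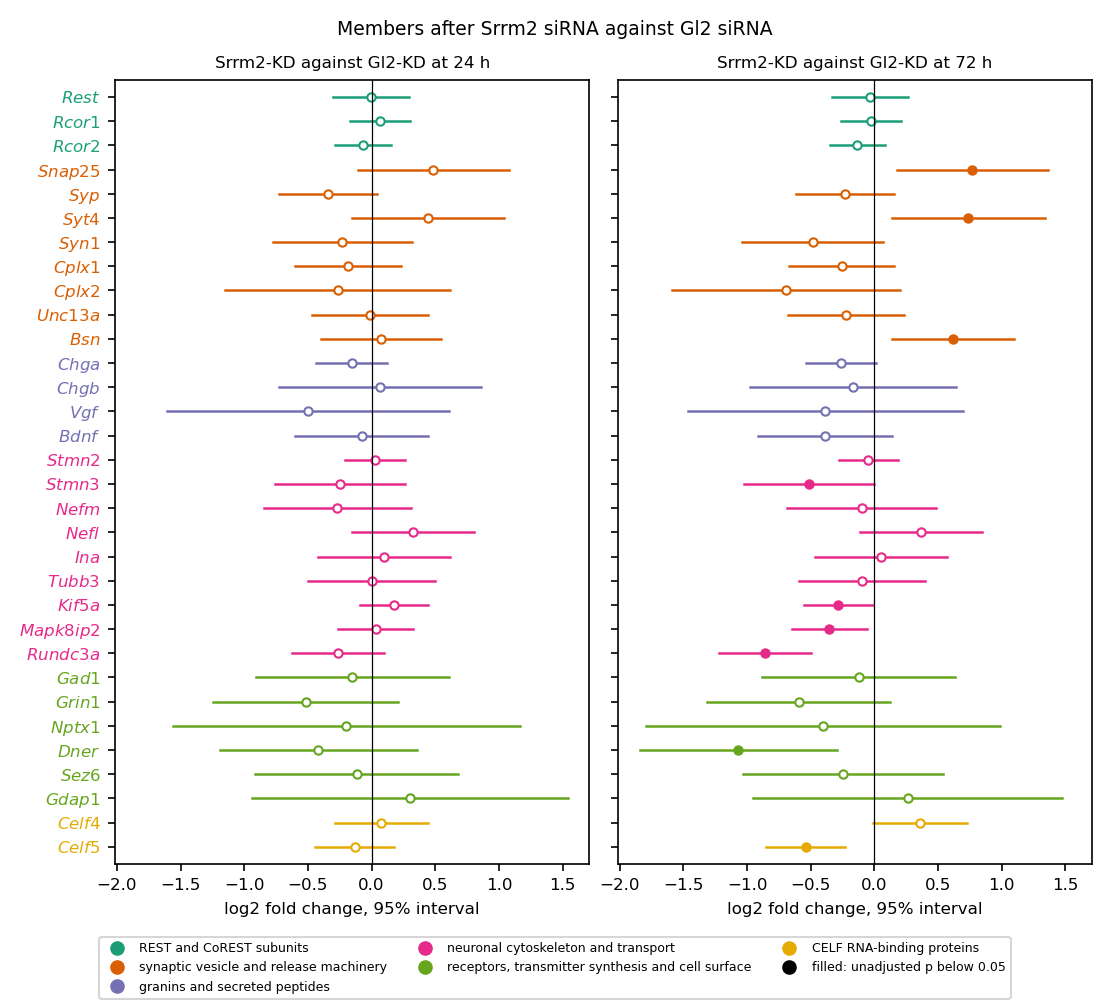
Fitted log2 fold change of Srrm2-KD against Gl2-KD with its 95% interval, at 24 h and at 72 h, for the 32 members that were not near 0 counts, grouped and coloured by role. Filled points have an unadjusted p below 0.05, which 0 members reached at 24 h, and no point passed the adjusted test. *Rundc3a* and *Dner* lie farthest to the left at 72 h, and *Snap25* and *Syt4* farthest to the right.

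Averaged over both times, edgeR called 0 of 34 members, against 0.067% of all genes, and at an unadjusted p below 0.05 it was 4 higher (5.72% of all genes) and 7 lower (7.85%), against 13.6% in either direction. DESeq2 called 3 members (3.78% of all genes), *Rundc3a*, *Celf5* and *Snap25*, and limma-voom 0 (0.474%). When each experiment and time point formed a block of its own, 8 members were called (5.79% of all genes), of which *Rundc3a*, *Dner*, *Stmn3*, *Celf5* and *Grin1* were lower and *Snap25*, *Syt4* and *Nefl* higher. In that setting 5 members were called at 72 h (3.73% of all genes), namely *Rundc3a*, *Dner*, *Celf5* and *Stmn3*, all lower, and *Snap25*, higher.

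The 11 members with a match to the REST element were set beside the 20 without one, leaving out *Rest*, *Rcor1* and *Rcor2*. For these 20, no match was found in the sequences searched, which left out introns and more distant flanks. Promoter windows were held for only 21 members in all, so genes without a match can still hold the element. At 72 h, 9 of the 11 had negative point estimates, with a median of -0.39, and 15 of the 20, with a median of -0.19. At 24 h, 9 of the 11 were negative with a median of -0.25, and 8 of the 20 with a median of 0.03. The exceptions among the 11 at both times were *Syt4* and *Celf4*. An unadjusted edgeR p below 0.05 was found for 0 of the 11 and 0 of the 20 at 24 h (2.62% of all genes). At 72 h it was 4 of the 11 and 6 of the 20 (12.9%), and in the mean of both times 6 and 5 (13.6%). The comparisons at 24 h and 72 h do not share libraries, but they come from the same fit with shared experiment terms and are not independent. The split was made after earlier results were known and was not tested.

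No member was shown to respond differently at 72 h and at 24 h. edgeR called 0 members and 0% of all genes for the difference between the siRNA effects, and 3 members had an unadjusted p below 0.05, all lower, against 1.64% of all genes (0.979% lower). DESeq2 and limma-voom called 0 members and 0.0103% and 0% of all genes. *Kif5a* was at 27.02, 20.4 and 19.6 CPM in Gl2-KD and 31.1, 24.1 and 21.04 CPM in Srrm2-KD at 24 h, and at 36.7, 27.8 and 21.1 CPM and 34.7, 19.9 and 17.1 CPM at 72 h. It was higher in every experiment at 24 h and lower in every experiment at 72 h, a difference of -0.46 on the log2 scale (SE 0.17, unadjusted p = 0.0214, edgeR adjusted p = 1.0). For *Rundc3a* the difference was -0.59 (SE 0.23), for *Celf5* -0.41 (SE 0.20) and for *Mapk8ip2* -0.38 (SE 0.19), each with an edgeR adjusted p of 1.0. For *Rest*, *Rcor1* and *Rcor2* it was -0.03, -0.09 and -0.07 (SE 0.19, 0.15 and 0.14, edgeR adjusted p = 1.0 for each). *Celf3* had the smallest p of this comparison, from counts in 3 of the 12 libraries.

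Between 24 h and 72 h of culture, 3 members passed the test in the control cells. In Gl2-KD, edgeR called 3 of 34 members, against 1.45% of all genes, 1 higher (0.747%) and 2 lower (0.706%). DESeq2 called 11 (6.69% of all genes) and limma-voom 4 (2.48%). The median of the members was 0.09, with 18 above and 16 below 0, against 0.02 for all genes (52.3% above 0), and 15 had an unadjusted p below 0.05, against 16.8%. The 15 include *Celf3*, which had no count in Gl2-KD at 24 h. Further, 5 members did not overlap between times, against 7.27% of all genes. The 3 called were *Celf5*, *Celf4* and *Rcor2*. All 6 genes of receptors, transmitter synthesis and the cell surface had positive point estimates in Gl2-KD (median 0.70), with 2 at an unadjusted p below 0.05, and 4 of the 6 in Srrm2-KD (median 0.50), with 0.

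*Celf5* rose from 17.6, 13.5 and 13.99 CPM at 24 h to 35.1, 20.98 and 23.6 CPM at 72 h in Gl2-KD, with all 3 later libraries above all 3 earlier ones (log2 fold change 0.79, SE 0.14, edgeR adjusted p = 0.0276). *Celf4* fell from 14.1, 13.96 and 13.6 CPM to 5.95, 7.98 and 8.89 CPM, again without overlap (log2 fold change -0.90, SE 0.17, edgeR adjusted p = 0.0316). So 2 paralogues of the same family moved in opposite directions in the same libraries. In Srrm2-KD *Celf5* was at 19.6, 12.1 and 10.7 CPM and 27.5, 12.8 and 15.8 CPM, and *Celf4* at 12.5, 16.9 and 15.3 CPM and 6.61, 11.6 and 11.4 CPM. The directions were the same as in the control in all 3 experiments, and neither passed the test there (0.38, SE 0.14, edgeR adjusted p = 0.215 for *Celf5* and -0.62, SE 0.17, edgeR adjusted p = 0.117 for *Celf4*). All 3 calls in Gl2-KD were lost when any 1 of the 6 Gl2-KD libraries, or the Srrm2-KD library of experiment 2 at 24 h, was left out.

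Several genes of the axonal cytoskeleton had lower values at 72 h, mostly in experiments 2 and 3, but edgeR called 0 of the 9 cytoskeletal and transport genes with either siRNA. In Gl2-KD 6 of the 9 had negative and 3 positive point estimates (median -0.24). At an unadjusted p below 0.05, 4 were lower and 1 higher, against 7.21% and 9.59% of all genes. The 4 genes described next were chosen after their values were seen. *Nefm*, a neurofilament subunit, was at 3.30, 4.60 and 2.53 CPM at 24 h and 2.27, 1.46 and 1.35 CPM at 72 h in Gl2-KD, without overlap (log2 fold change -1.03, SE 0.27, edgeR adjusted p = 0.0836). *Ina* was at 116, 165 and 80.7 CPM and 107, 84.8 and 31.1 CPM in Gl2-KD (log2 fold change -0.80, SE 0.24, edgeR adjusted p = 0.123) and at 125, 159 and 95.1 CPM and 103, 67.4 and 47.2 CPM in Srrm2-KD (log2 fold change -0.84, SE 0.24, edgeR adjusted p = 0.126). In the control, experiment 1 differed little between times and experiments 2 and 3 differed widely. *Tubb3* was at 56.6, 119 and 51.3 CPM and 54.8, 54.8 and 25.9 CPM in Gl2-KD and at 66.5, 118 and 46.01 CPM and 50.3, 40.3 and 29.99 CPM in Srrm2-KD (log2 fold change -0.83, SE 0.23, edgeR adjusted p = 0.12 in the latter). *Nefl* was at 79.7, 93.1 and 35.1 CPM and 73.1, 39.3 and 21.2 CPM in Gl2-KD and at 83.1, 116 and 51.02 CPM and 85.6, 61.3 and 25.96 CPM in Srrm2-KD, where experiment 1 was slightly higher at 72 h. Without experiment 1, the members called in Gl2-KD were *Nefl*, *Ina* and *Tubb3* (1.98% of all genes called), with log2 fold changes of -0.99, -1.15 and -1.06 and edgeR adjusted p of 0.0270, 0.0407 and 0.0474. In Srrm2-KD it was then *Nefl* alone (-0.95, edgeR adjusted p = 0.0396, 0.711% of all genes called). *Nefl* and *Nefm* overlap each other on opposite strands, and the sources used here do not say whether the counting used the strand.

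**Figure D5:**
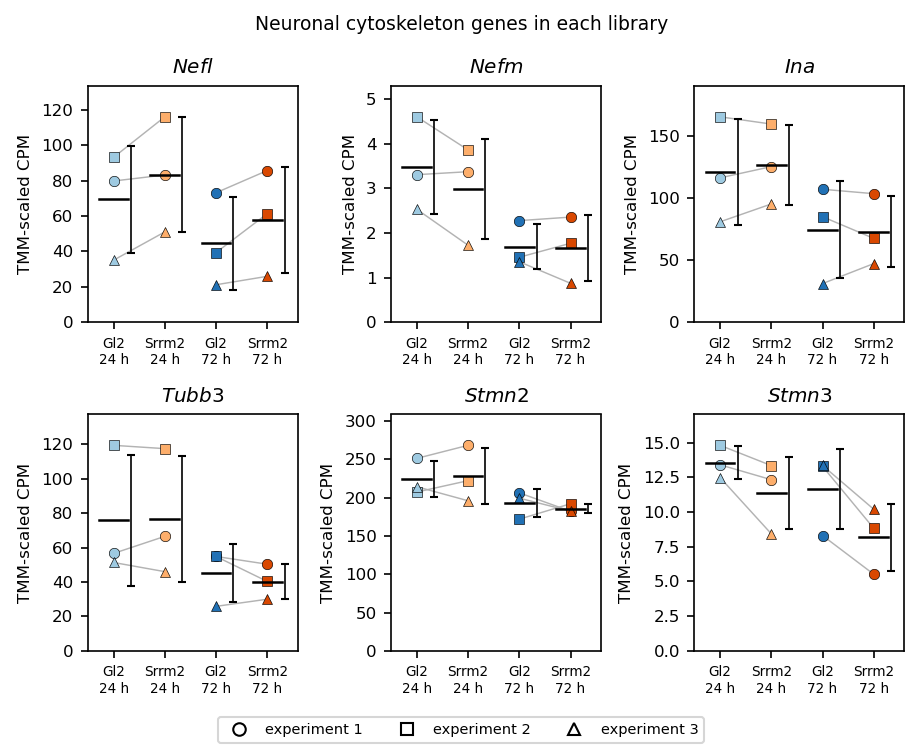
TMM-scaled CPM of 6 cytoskeletal genes in each library, with symbols for experiments, grey lines within 1 experiment and time, and bars for mean and SD (n = 3). *Nefl*, *Nefm*, *Ina* and *Tubb3* are lower at 72 h than at 24 h in experiments 2 and 3, and in Gl2-KD differ little in experiment 1 for *Nefl*, *Ina* and *Tubb3*.

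In Srrm2-KD cells, edgeR called 1 of 34 members between times, *Rcor2* (0.551% of all genes, 0.361% lower), DESeq2 7 (5.43%) and limma-voom 1 (1.33%). All 9 cytoskeletal and transport genes had negative point estimates, with a median of -0.51, and 5 of them an unadjusted p below 0.05, as had 12 of all 34 members and 16.3% of all genes. Over all members, 23 were below and 11 above 0, with a median of -0.17, against 0.00 for all genes (50.1% above 0). 6 members did not overlap between times, against 7.48% of all genes: *Celf4*, *Rcor2*, *Stmn2*, *Scg3* and *Bdnf* were lower and *Snap25* higher. Of these, *Scg3* was near 0 counts, at 0.074 to 0.166 CPM at 24 h and 0 to 0.0374 CPM at 72 h. *Syp* was at 2.29, 2.70 and 7.84 CPM and 3.22, 4.67 and 10.03 CPM in Gl2-KD and at 1.93, 2.24 and 5.60 CPM and 2.89, 4.18 and 7.65 CPM in Srrm2-KD, higher at 72 h in 6 of 6 pairs (log2 fold change 0.65, SE 0.18, edgeR adjusted p = 0.118 in Srrm2-KD). *Cplx1* and *Unc13a*, of vesicle fusion and priming, were also higher in 6 of 6 pairs, with log2 fold changes for *Cplx1* of 0.62 (Gl2-KD) and 0.55 (Srrm2-KD) and for *Unc13a* of 0.70 and 0.49, none of which passed the adjusted test. The call of *Rcor2* in Srrm2-KD was lost when any 1 library other than that of Gl2-KD at 72 h in experiment 3 was left out. The comparisons of time and of siRNA share libraries, so they are given side by side only.

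For *Rest* and *Rcor1*, experiment 1 differed from the other experiments. All 4 libraries of experiment 1 lay above the other 8 for *Rest* (mean 543 against 330.2 CPM) and *Rcor1* (33.3 against 15.5 CPM), 2 of 34 members, against 16.7% of all genes, and below them for *Chga* (14.3 against 19.7 CPM), 1 of 34, against 13.7%. The other 31 members overlapped. *Dner*, *Syp* and *Vgf* had lower means in experiment 1 (log2 ratio -1.16, -1.12 and -0.92), with overlap. The 4 libraries of an experiment are not replicates of it, and no test was made.

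By edgeR, the other parts of the REST pathway showed no call after *Srrm2* siRNA. Of 24 genes of the REST corepressor machinery, a list that holds histone deacetylases, SIN3, LSD1 (*Kdm1a*), G9a (*Ehmt2*), the REST phosphatases and ubiquitin ligase, and also the splicing factors *Srrm3* and *Srrm4*, which are no corepressors, edgeR called 0 at 24 h and 0 at 72 h, and 1 and 3 were lower at an unadjusted p below 0.05, against 1.47% and 7.86% of all genes. With DESeq2 the calls were 0 and 1 (0.124% and 2.76% of all genes) and 1 in the mean of both times (3.78%), with limma-voom 0 in each. At 72 h, 19 of the 24 had negative point estimates, with a median of -0.10, and without the 2 splicing factors it was 17 of 22, with a median of -0.09. The smallest p was that of *Hmg20b*, a subunit of the CoREST complex, at 43.004, 60.7 and 60.8 CPM in Gl2-KD and 32.8, 48.4 and 45.9 CPM in Srrm2-KD (log2 fold change -0.37, SE 0.10, edgeR adjusted p = 0.182). *Srrm4* was counted at 0.45 to 1.24 CPM and *Srrm3* at 0.572 to 1.84 CPM in a library. Between times, *Ehmt2* had log2 fold changes of -0.31 (Gl2-KD) and -0.32 (Srrm2-KD), *Hdac1* of -0.28 and -0.27, and edgeR called 0 of 24 in both, with 6 at an unadjusted p below 0.05 in each, against 16.8% and 16.3% of all genes (DESeq2 called 2 and 1, against 6.69% and 5.43%, and limma-voom 0 and 0).

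Of 20 further REST target genes that are no members, such as sodium and potassium channel subunits, 16 passed the filter on low counts, and edgeR called 0 of them with siRNA or with time. At 72 h 1 of the 16 was lower at an unadjusted p below 0.05, the pacemaker channel *Hcn2* (log2 fold change -0.51, SE 0.21, edgeR adjusted p = 0.34), against 7.86% of all genes, and 0 at 24 h, and DESeq2 and limma-voom called 0 at both times. Between times 3 in Gl2-KD and 2 in Srrm2-KD had an unadjusted p below 0.05, against 16.8% and 16.3% of all genes. DESeq2 called 1 and 0 of them (6.69% and 5.43% of all genes) and limma-voom 0 and 0.

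Of 13 tested genes of neural identity, edgeR called 0 after siRNA at either time or in the mean of both. At an unadjusted p below 0.05, 0 were found at 24 h, 4 at 72 h and 2 in the mean, all lower, against 7.86% and 7.85% of all genes at the latter 2. DESeq2 called 0 at 24 h and at 72 h and 2 in the mean, both lower (3.78% of all genes), and limma-voom 0 in each. *Elavl3*, *Map2* and *Ncam1* had the smallest p at 72 h, with log2 fold changes of -0.60, -0.50 and -0.38. With time in Srrm2-KD, 1 of the 13 was called (0.361% of all genes were lower), the dendritic microtubule protein *Map2*, from 22.9, 10.8 and 11.1 CPM to 8.49, 6.27 and 7.42 CPM (log2 fold change -0.93, SE 0.17, edgeR adjusted p = 0.0467), and in Gl2-KD it went from 27.01, 11.9 and 15.4 CPM to 14.3, 7.85 and 10.2 CPM (log2 fold change -0.71, SE 0.17, edgeR adjusted p = 0.0612). In Gl2-KD DESeq2 and limma-voom each called 1 of the 13, lower (6.69% and 2.48% of all genes), and in Srrm2-KD 2 and 1 (5.43% and 1.33%). The summed level of the 14 identity genes was 119.8 to 176 CPM at 24 h and 127 to 193 CPM at 72 h in Gl2-KD, and 127 to 180.0 CPM and 106 to 188 CPM in Srrm2-KD, and within experiments it was lower in Srrm2-KD in 1 of 3 pairs of 24 h and all 3 pairs of 72 h.

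The 10 pluripotency genes summed to 5839 to 6868 CPM at 24 h and 5591 to 7300 CPM at 72 h in Gl2-KD, and to 5749 to 6163 CPM and 4739 to 6560 CPM in Srrm2-KD. The ranges overlapped, but within experiments the sum was lower in Srrm2-KD in 6 of 6 pairs. By edgeR 0 of them were called after siRNA at either time, with 1 lower at 24 h and 4 lower at 72 h at an unadjusted p below 0.05, against 1.47% and 7.86% of all genes. DESeq2 called 0 and 1 of them, against 0.124% and 2.76% of all genes, and limma-voom 0 and 0. Of the lists for other cell types, the 4 trophoblast genes summed at 72 h to 84.97 to 95.3 CPM in Gl2-KD and 46.1 to 72.01 CPM in Srrm2-KD, without overlap, and at 24 h to 59.7 to 74.3 CPM and 55.7 to 72.8 CPM. Nearly all of that sum was *Tfap2c*, with a mean of 70.1 CPM, whereas *Cdx2*, *Elf5* and *Hand1* had means of 0.0716 to 0.261 CPM. edgeR called 0 of the 4 in any comparison, and 1 was lower at 72 h at an unadjusted p below 0.05, against 7.86% of all genes. DESeq2 called 1, lower, at 72 h (2.76% of all genes) and limma-voom 0 (0.0206%). The 6 glial genes summed to 13.7 to 23.5 CPM at 24 h and 22.04 to 56.4 CPM at 72 h in Gl2-KD, higher in 3 of 3 experiments, and to 16.6 to 24.7 CPM and 21.4 to 40.5 CPM in Srrm2-KD, higher in 2 of 3. Of 4 glial genes tested, edgeR called 0. With time in Gl2-KD, 2 were higher at an unadjusted p below 0.05, against 9.59% of all genes. DESeq2 and limma-voom made 2 and 0 calls there, against 6.69% and 2.48% of all genes. The 5 fibroblast genes summed to 3.89 to 24.8 CPM and were lower in Srrm2-KD in 6 of 6 pairs. The 8 mesoderm and endoderm genes summed to 5.08 to 9.93 CPM and were lower in 3 of 6. Both lists had 0 calls by edgeR, DESeq2 and limma-voom after siRNA. At 72 h they had 1 and 0 genes at an unadjusted p below 0.05, against 12.9% of all genes. The part of these cell type markers in the values of the members was not tested.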

How the data were processed

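PolyA+ RNA of 12 cultures was sequenced with a strand-specific kit. The deposited values are estimated counts per gene, which the authors made with Kallisto 0.46.1 on GENCODE transcripts (mm10), with other settings not given in the sources used here. 33.9% to 43.1% of values in a library were not whole, and they were rounded. Libraries held 73933196 to 153343831 estimated counts, and 1 count was worth 0.00616 to 0.0136 CPM. 19410 of 42450 genes passed filterByExpr (minimum count 10, minimum total 15). edgeR 4.0.16 in R 4.3.3 was run with TMM scaling and its quasi-likelihood test (legacy=TRUE), on all 12 libraries at once, with group and experiment number as terms, and Benjamini-Hochberg adjustment over all genes tested. The study's own model had the day of RNA processing as a covariate, and the day is not given in the labels, so the experiment number was used. The number paired the libraries by deviation: 18 pairs with the same number correlated at 0.281 to 0.747 and 36 with different numbers at -0.628 to 0.231. Nothing in the labels says more of how the experiments were separated, so p-values measure the spread between these libraries. The siRNA comparisons were made at 24 h, at 72 h and in the mean of both, the time comparisons within each siRNA, and the difference between the siRNA effects was fitted as a contrast of the same model.

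The members and gene lists were chosen with earlier results of these data known. Statistics are given for *Rest*, *Rcor1* and *Rcor2* in every comparison, for every member called at an adjusted p below 0.05 and, where fewer than 5 were called, for those of smallest p up to 5, and for at most 3 genes of a further list. Other members named were chosen after their values were seen. Levels per kb divide CPM by the mean length of a gene's annotated transcripts. The alternatives were DESeq2 1.42.0, limma-voom (limma 3.58.1), other scalings, filters and edgeR settings, other blocks, each time alone, and leaving out each library or experiment. The scripts were tested on simulated data. Columns of per-sample values not used: 0.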

Additional observations from a re-analysis of the deposited data

Results flagged for a closer look

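*Kif5a*, a neuronal kinesin heavy chain, was higher in Srrm2-KD than in Gl2-KD in 3 of 3 experiments at 24 h and lower in 3 of 3 at 72 h. The siRNA effect at 72 h minus that at 24 h was -0.46 on the log2 scale, with an unadjusted p of 0.0214 and an edgeR adjusted p of 1.0. No test for outlying libraries was made. With a single library or experiment left out, the difference ranged from -0.63 to -0.34.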

How the results depend on the processing

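At 24 h and for the difference between the siRNA effects, 0 members were called under every alternative run. At 72 h the count of 0 became 2 with DESeq2 (2.76% of all genes called) and 3 with that time fitted alone (1.78%). It became 5 with a replicate block for each experiment and time point (3.73%). When a library or experiment was left out it was 0 to 1. The 1 arose without the Srrm2-KD library of experiment 1 or of experiment 3 at 24 h (0.211% and 0.273% of all genes). In the mean of both times the count of 0 became 3 with DESeq2 (3.78% of all genes called) and 1 without a filter on low counts (0.422%). It became 8 with a replicate block for each experiment and time point (5.79%), and 0 to 1 with libraries or experiments left out. *Rundc3a* was then called without experiment 1 (-0.70, edgeR adjusted p = 0.0248, 0.585% of all genes called). It was also called without the Srrm2-KD library of experiment 1 at 24 h (1.45% of all genes called). For time in Gl2-KD the 3 calls became 11 with DESeq2, 0 with no replicate block and 0 to 3 with libraries or experiments left out, and for time in Srrm2-KD the 1 call became 7, 0 and 0 to 1. The cause was not tested. Allowing 5 mismatches in place of 4 raised the members with a match to the REST element in transcripts from 9 to 14 (41.2%), with 19.7% of protein-coding genes, and allowing 3 gave 7 (20.6%), with 0.791%.

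The sign of the small differences of *Rest*, *Rcor1* and *Rcor2* did not hold. *Rest* at 24 h was 0.01 without a filter, and *Rcor1* at 72 h 0.01 with no replicate block. With 1 library left out, *Rest* ranged from -0.16 to 0.11 at 24 h, -0.20 to 0.06 at 72 h, -0.11 to 0.03 in the mean, -0.19 to 0.07 with time in Gl2-KD, -0.26 to 0.01 with time in Srrm2-KD and -0.19 to 0.11 for the difference. *Rcor1* ranged from -0.12 to 0.05 at 72 h and -0.03 to 0.05 in the mean, and *Rcor2* from -0.13 to 0.00 at 24 h. With an experiment left out, the sign of *Rest* turned at 24 h (0.03 without experiment 1 or 2), at 72 h (0.06 without experiment 2), in the mean (0.00 without experiment 1, 0.04 without 2), with time in Gl2-KD (0.06 without 3) and for the difference (0.03 without 2), that of *Rcor1* at 72 h (0.07 without 2), in the mean (-0.01 without 1, 0.00 without 3) and for the difference (0.02 without 2), and that of *Rcor2* at 24 h (0.04 without 2) and for the difference (0.02 without 1). The next counts cover 46 pairs of gene and comparison, chosen from the results by the rule for statistics given above. Of their values under the alternatives, 1019 kept their direction and side of the threshold, 48 lost a call, 31 gained one and 41 changed sign. *Celf3* could not be fitted under the filter of at least 10 counts in every library.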

Other observations

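The further lists also differed between experiments, outside the comparisons of the report. Of the 20 further REST target genes, 5 were higher in all 4 libraries of experiment 1 than in the other 8, namely *Chrnb2*, *Gria2*, *L1cam*, *Syt7* and *Ntrk3*, and 0 were lower, against 16.7% and 13.7% of all genes. Of the 14 neural identity genes, 3 were higher (*Sox1*, *Pax6* and *Ncam1*) and 1 lower (*Nes*), and of the 24 genes of the corepressor list, *Srrm3* and *Srrm4* included, 7 were higher and 4 lower. These genes are named because they did not overlap, and no test was made.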
